A study of Mus musculus with 4 samples.

Results

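The 10 genes described here encode receptors and adaptors that are best known from natural killer (NK) cells, and they were picked by symbol from the 55450 features of a single-cell RNA-seq matrix of 4T1 tumours. They were Klrk1 (NKG2D), Ncr1 (NKp46), Klrb1c (NK1.1), Klrd1 (CD94), Klrc1 (NKG2A), Klre1 (NKG2I), Klra3 (Ly49C), Klra8 (Ly49H), Hcst (DAP10) and Tyrobp (DAP12). 4T1 is a mouse mammary carcinoma line, and 1000000 cells per animal were placed under the skin of the flank of female BALB/c mice aged 6 to 8 weeks. The labels put 2 of the 4 samples in a PBS group and 1 in a group given TIOs, which are macrophage-derived carriers of light-activated particles that were frozen in liquid nitrogen before use, so they were not living cells. The last sample has a title and a protocol that disagree, and its group stayed unassigned. Every mouse was injected into a vein on day 7, was then exposed to near infrared light (980 nm, 5 min a time) on 3 days, 8, 9 and 10, and gave its tumour on day 13, so the PBS controls were lit too. Tumour cells were sorted for CD45, a surface protein of blood cells. The barcodes of the matrix carry 4 suffixes, called libraries 1 to 4 here, and which suffix belongs to which sample was not stated in the labels, the matrix or the paper's methods. The treatment of each library was therefore unknown, PBS and TIOs were not compared, and the matrix was treated as 1 sample without replicates, and no test was run.

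NK cells decide between killing and sparing a cell by adding the signals of activating and inhibitory receptors. NKG2D binds stress-induced relatives of MHC class I and has no signalling motif of its own, so it works through DAP10 or, in mice, DAP12. CD94 forms pairs with members of the NKG2 family, and its pair with NKG2A, which binds Qa-1 (H2-T23), is inhibitory. The Ly49 proteins are the mouse receptors for classical MHC class I, with inhibitory members such as Ly49C and activating members such as Ly49H, whose gene is absent from BALB/c mice. NKp46 and NK1.1 are activating receptors that pair with the Fc receptor gamma chain (Fcer1g). DAP12 also serves many receptors of monocytes, macrophages, neutrophils and dendritic cells (DC).

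In the GENCODE vM21 annotation of GRCm38, 7 of the 10 genes lay on chromosome 6, in 1.56 Mb from base 128778485 to base 130337574. Ncr1 (4337724 to 4345164), Tyrobp (30413760 to 30417585) and Hcst (30417712 to 30419854) lay on chromosome 7. Tyrobp and Hcst ran tail to tail with 126 bases between them. The annotated coding sequences show how the division between receptors and adaptors is written in the genes, so the codons of the signalling motifs are printed, from the 5′ end and with the tyrosine codons in capitals. They are the immunoreceptor tyrosine-based inhibitory motif (ITIM) of Klrc1 and Klra3, the kinase-binding tyrosine motif of Hcst and the immunoreceptor tyrosine-based activation motif (ITAM) of Tyrobp. The last line gives the codons of Klra8 at the place of the Klra3 motif, with the codon that stands in place of the tyrosine codon in capitals.
Klrc1 ITIM, codons 6 to 11 of 244, chr6:129678878-129678895, minus strand: gtcaccTATgcagaactg
Klra3 ITIM, codons 6 to 11 of 266, chr6:130335767-130335784, minus strand: gtcactTACtcaactgtg
Hcst motif, codons 72 to 75 of 79, chr7:30417821-30417832, minus strand: TACatcaacatg
Tyrobp ITAM, codons 92 to 106 of 114, spliced between chr7:30415670-30417382, plus strand: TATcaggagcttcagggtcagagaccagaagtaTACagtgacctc
Klra8, codons 6 to 11 of 266, chr6:130128128-130128145, minus strand: gtcactTTCccaactatg
No match to any of these motifs was found in the first 45 codons of Klrk1, Klrd1, Klre1 and Klrb1c or in the 325 codons of Ncr1. A match is a description of the reference, which is C57BL/6J and not BALB/c.

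Promoter windows of 300 bases (250 before to 50 after the start, RefSeq, GRCm38.p6) were given for 8 of the 10 genes. They are shown for Klrk1, found in NK and CD8 T cells, for Ncr1 (the first of its windows), which set these cells apart, and for Hcst, whose ranges over libraries overlapped between NK and T cells. Capitals mark 3 motifs searched on both strands, the Runx motif TGTGGT, the Ets motif GGAAGT and the T-box motif TCACAC.
Klrk1, chr6:129623815-129624114, minus strand: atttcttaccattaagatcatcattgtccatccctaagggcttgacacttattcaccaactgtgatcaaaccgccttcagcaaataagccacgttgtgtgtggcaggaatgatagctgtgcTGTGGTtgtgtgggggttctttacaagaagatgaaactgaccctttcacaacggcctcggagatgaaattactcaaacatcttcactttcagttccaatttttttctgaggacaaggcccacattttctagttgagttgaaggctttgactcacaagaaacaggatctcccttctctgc
Ncr1, chr7:4337465-4337764, plus strand: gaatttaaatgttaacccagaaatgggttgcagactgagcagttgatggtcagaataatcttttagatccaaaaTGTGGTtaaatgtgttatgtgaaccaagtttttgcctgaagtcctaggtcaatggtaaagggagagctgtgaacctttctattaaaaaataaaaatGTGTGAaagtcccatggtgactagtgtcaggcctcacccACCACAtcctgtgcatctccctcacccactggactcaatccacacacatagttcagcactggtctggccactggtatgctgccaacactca
Hcst, chr7:30419805-30420104, minus strand: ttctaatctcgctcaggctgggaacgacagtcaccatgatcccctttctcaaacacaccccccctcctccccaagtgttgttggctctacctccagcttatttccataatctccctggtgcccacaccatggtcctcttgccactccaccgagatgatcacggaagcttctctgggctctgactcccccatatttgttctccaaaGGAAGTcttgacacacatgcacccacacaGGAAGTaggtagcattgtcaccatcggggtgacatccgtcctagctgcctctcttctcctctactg
The Runx motif was in a window of 5 of the 8 genes and in 16.8% of all 32851 promoter windows. The Ets motif was in 2 of 8 and in 23.8% of all windows, and the T-box motif was in 2 of 8 and in 14.5%. A gene was counted when any of its windows held the motif, whereas the shares of all windows count each window. By window, the Runx motif was in 6 of 11, the Ets motif in 2 of 11 and the T-box motif in 4 of 11, and the windows of Ncr1 overlap each other. The matches did not overlap each other, and the windows of Klra3 and Klra8 held none of the 3.

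The 4 libraries held 6902 to 9149 barcodes and 69255999 to 108646352 UMIs (unique molecular identifiers, each standing for 1 captured RNA molecule). Cells with 300 or more genes and at most 15% mitochondrial UMIs were kept, which left 32133 of 33064 barcodes, with a median of 11698, 2641.5, 2695 and 7182 UMIs in libraries 1 to 4. Pairs of libraries shared 11 to 22 kept barcode sequences, and at most 1 of them in the same gate. A cell was assigned to a type by a gate of marker genes, none of which is among the 10 genes, and cells that passed several gates (8.70%) or none (27.9%) were set aside. The NK gate asked for 3 of Gzma, Prf1, Eomes, Il2rb, Txk, Xcl1 and Nkg7 and for no UMI of Cd3d, Cd3e, Cd3g, Trac, Cd4, Cd8a or Cd8b1. It did not exclude Trbc2 or Trdc and does not part NK cells from type 1 innate lymphoid cells. It held 64, 13, 30 and 92 cells in libraries 1 to 4. The NK label held in markers the gate did not use: Ctsw was found in 79.9% of NK-gated cells and 2.82% of the other cells, Tbx21 in 28.6% and 0.598%, and Klri2 in 23.6% and 0.495%. The CD8 T gate held 270 cells, 243 of them in library 1, so statements on CD8 T cells rest on that library. The Trdc T gate (T cells with the delta chain gene and without Cd4 or Cd8) held 80 cells, in which the T cell genes Cd5 (6.25%), Cd28 (16.3%) and Lck (16.3%) were rare and Bcl11b (55%) and Thy1 (36.3%) were not. Although the cells were sorted for CD45, 3087 cells passed the tumour or epithelial gate, 2455 the fibroblast gate and 149 the endothelial gate. Each of these gates required that no UMI of Ptprc, the CD45 gene, was found. A level is the sum of a gene over the gated cells, scaled to 1000000 UMIs in total (CPM), and is given by library where a gate had 20 or more cells, and intervals are exact 95% intervals that cover counting error only. Since these are 3′ end UMI counts with no length scale, a gene was compared between gates and not with another gene.

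**Figure D1:**
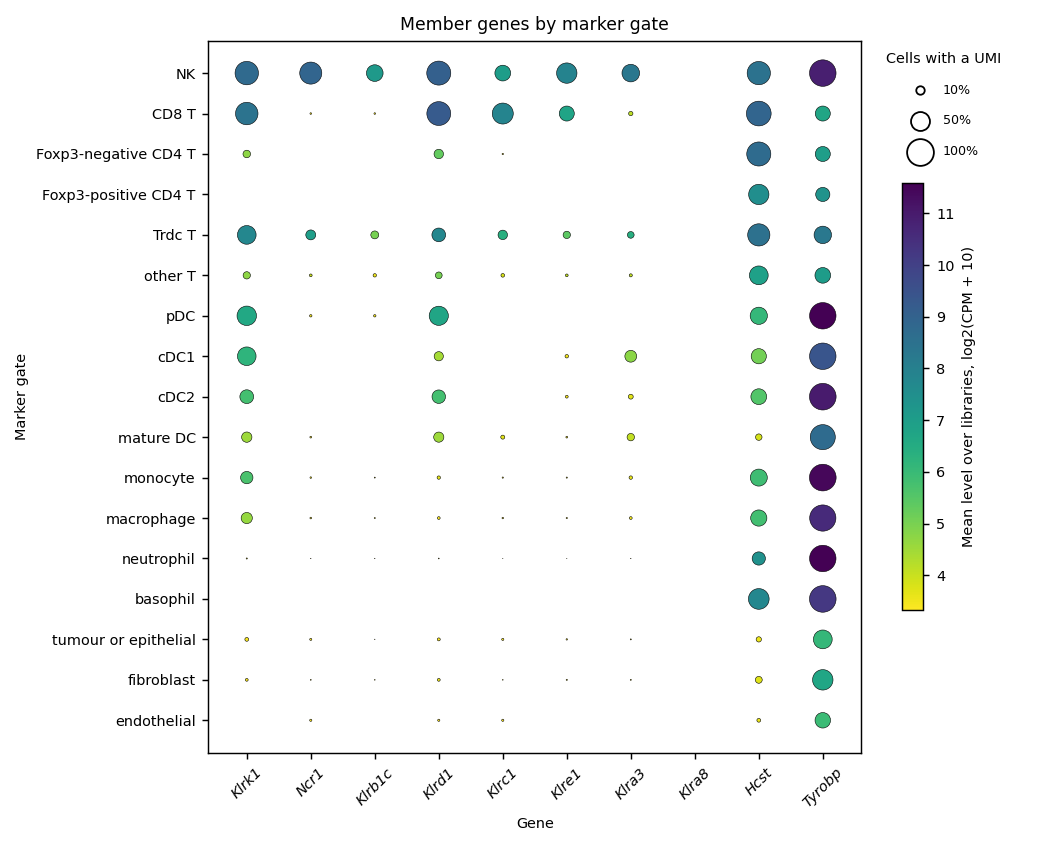
The 10 genes (x axis) in 17 marker gates (y axis). Dot area is the percent of all gated cells with a UMI and colour is the mean level over the libraries with 20 or more cells, as log2(CPM + 10). The detected receptor genes all show in the NK row. In the CD8 T row Ncr1 and Klrb1c are in 1 of 270 cells each and Klra3 in 7. Klra8 has no dot, and Tyrobp is darkest in the pDC, neutrophil and monocyte rows.

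Klrk1, the gene of NKG2D, was highest in NK-gated cells, followed by CD8 T and Trdc T cells, and it reached well into the myeloid gates. NK-gated cells had 425, 445 and 396 CPM of Klrk1 in libraries 1, 3 and 4, and the 13 cells of library 2 had 410 CPM. CD8 T-gated cells of library 1 had 337 CPM (308.8 to 366.7), and within library 1 this interval overlapped that of NK-gated cells (358.8 to 499.7). A UMI of Klrk1 was found in 76.4% (69.9 to 82.1) of NK-gated and 70.4% (64.5 to 75.8) of CD8 T-gated cells. These intervals overlapped, but the CD8 T value was that of library 1: there it was 76.1%, and in libraries 2, 3 and 4, with 5, 14 and 8 cells, it was 40.0%, 7.14% and 25.0%. Trdc T-gated cells had 173 and 245 CPM in libraries 1 and 3, and 48.8% of them had a UMI. The sequence of gates after these was plasmacytoid DC (pDC, 88.8 CPM, library 4), type 1 conventional DC (cDC1, 39.4 to 81.5 CPM), type 2 conventional DC (cDC2, 35.5 to 60.9 CPM) and monocytes (10.5 to 96.5 CPM), and each of these ranges overlapped the next. Klrk1 was at 0 UMIs in the 75 Foxp3-positive CD4 T, 67 basophil and 28 B cell-gated cells, and in 0.193% of 5711 neutrophil-gated cells.

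Ncr1, the gene of NKp46, was found mainly in the NK and Trdc T gates among the cells that passed a single gate. In the Trdc T gate, 1 cell held 30 of the 60 Ncr1 UMIs. NK-gated cells had 451, 678, 357 and 613 CPM in libraries 1 to 4, and the lowest of these was above every value of every other gate. CD8 T-gated cells had 1 UMI of Ncr1 among 270 cells, and the 353 Foxp3-negative CD4 T-gated cells had none, with an exact 95% interval that reaches 1.04% of cells with a UMI, a limit on detection and not on expression. Of the 1079 Ncr1 UMIs in kept cells, 44.8% fell in the NK gate, 27.1% in cells that passed several gates and 15.5% in cells that passed none. After each cell was thinned at random to 1000 UMIs, Ncr1 was seen in 36.9% of NK-gated cells in place of 67.8%.

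Klrb1c, the gene of NK1.1, had the smallest total of the detected receptors (244 UMIs) and 54.5% of it was in the NK gate. It showed 66.9, 113, 81.5 and 244 CPM in the NK-gated cells of libraries 1 to 4, so library 4 stood above the others, and its interval (196 to 301) did not overlap those of libraries 1 (42.4 to 100.4) and 3 (43.4 to 139). In CD8 T-gated cells it was at 1 UMI, and in both CD4 T gates at 0.

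In library 1 Klrc1 was higher in CD8 T-gated than in NK-gated cells, and so was its partner Klrd1, though by less than 2-fold. Klrd1 had 596 CPM (558 to 635) in CD8 T-gated cells of library 1 against 370 (308 to 439.7) in the NK-gated cells of the same library. NK-gated cells of libraries 2, 3 and 4 had 636, 445 and 788 CPM. The CD8 T gate held too few cells in those libraries for a comparison. Klrc1 had 220 CPM (198 to 245) in CD8 T-gated cells of library 1, above the 102, 113 and 143 CPM of NK-gated cells of libraries 1, 3 and 4. A UMI of Klrc1 was found in 67.9% of the CD8 T-gated cells of library 1 and in 34.7% of all NK-gated cells. These shares are not matched for library or for depth (median 4736 and 3614 UMIs). Of the 755 Klrc1 UMIs, 46.6% were in the CD8 T gate. Klre1 went the other way, with 198, 201 and 283 CPM in NK-gated cells of libraries 1, 3 and 4 and 98.1 (83.3 to 114.9) in CD8 T-gated cells. Klrd1 was also seen without Klrc1 and Klre1: pDC-gated cells had 96.1 CPM (77.5 to 118) of it in library 4 and 0 UMIs of Klrc1 and Klre1 in all 123 cells. Of 20 other listed receptor genes of the NK gene complex, Klrc2 among them, none reached 50 CPM in pDC-gated cells. Whether a partner gene of CD94 other than Klrc1 was present below that level is not shown here.

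Klra3, which encodes the inhibitory Ly49C, had 212, 113, 307 and 398 CPM in the NK-gated cells of libraries 1 to 4 and 7.60 CPM in CD8 T-gated cells of library 1. It was found in 43.2% of NK-gated cells, so a large part of them showed none at this depth. In the Trdc T gate, the next highest, 1 cell held 22 of the 28 Klra3 UMIs. cDC1-gated cells came after that gate, at 5.12, 17.9, 24.0 and 22.1 CPM in libraries 1 to 4. Klra3 was in 19.5% of 118 cDC1-gated cells, and after thinning to 1000 UMIs it was in none of them. Klra8 had no UMI in any of the 33064 barcodes, which allows at most 0.00843 CPM over all barcodes and 3.20 CPM in the NK gate. The Ly49 genes are close copies, and the coding sequence of Klra3 was 96.2% identical to Klra10, 95.9% to Klra9, 91.1% to Klra6 and 90.5% to Klra8. The handling of reads shared by such copies was not stated, and the values of single Ly49 genes are therefore uncertain.

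**Figure D2:**
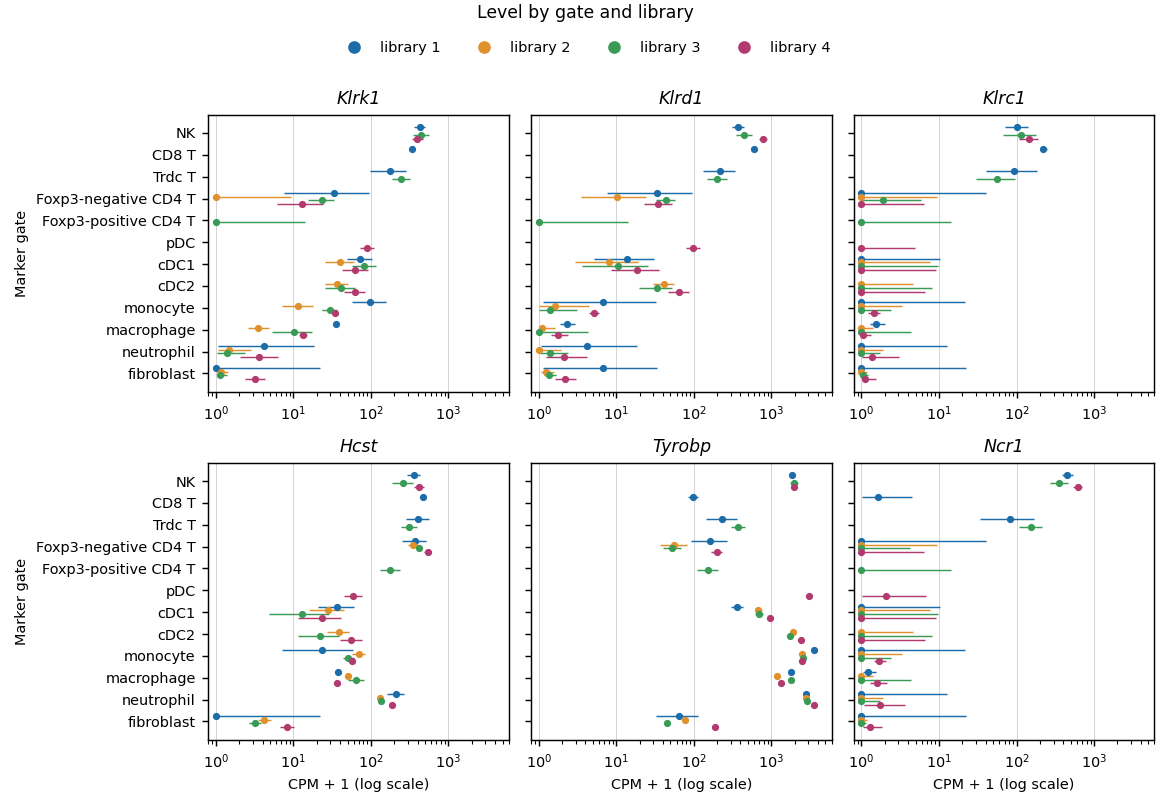
Level of 6 genes (x axis, CPM + 1 on a log scale) by gate (y axis) and library (colour), with exact 95% counting intervals as lines, for gates with 20 or more cells in the library. The CD8 T point is library 1 alone, and Ncr1 separates NK from CD8 T cells. Hcst is higher in NK and T cells than in monocytes and macrophages. Tyrobp is low in T cells and high in NK cells, monocytes, macrophages and neutrophils.

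The adaptor genes divided the cells differently from the receptors. Hcst, whose product DAP10 recruits phosphoinositide 3-kinase, was highest in the CD8 T, Foxp3-negative CD4 T, Trdc T and NK gates: 474 CPM in CD8 T-gated cells (library 1), 367, 350, 414 and 536 CPM in Foxp3-negative CD4 T-gated cells, and 355, 509, 257 and 418 CPM in NK-gated cells of libraries 1 to 4. These ranges over libraries overlapped, and none of the pairs compared reached 2-fold. Within library 1 the NK level was below that of CD8 T-gated cells (log2 ratio -0.41, counting standard error 0.14). In libraries 1, 3 and 4 it was below that of Foxp3-negative CD4 T-gated cells in value (-0.05, -0.67 and -0.35). In library 2, with 13 NK-gated cells, it was above. Monocyte-gated cells had 22.7, 68.8, 50.3 and 56.8 CPM, and the highest of these was below every NK value. The log2 ratio of NK-gated over monocyte-gated cells, after adding 10 CPM to each level, was 2.77 on average over libraries 1, 3 and 4. Between these lay basophil-gated (203 and 210 CPM in libraries 2 and 4), Foxp3-positive CD4 T-gated (176 CPM, 130.4 to 233, library 3) and neutrophil-gated cells (129 to 208 CPM), and the other T cells ranged from 33.8 to 212 CPM. Among tumour or epithelial cells Hcst was rare, in 3.89% at a median of 15549 UMIs and in 0.642% after thinning. It was in 75.4% and 35.9% of NK-gated cells, at a median of 3614 UMIs. How much of the Hcst in tumour or epithelial cells was free RNA was not tested.

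Tyrobp, whose product DAP12 recruits the kinases Syk and Zap70, was high in NK-gated cells and most myeloid gates and low in T cells. NK-gated cells had 1828, 1780, 1949 and 1942 CPM in libraries 1 to 4, a narrow range. Monocyte-gated cells had 3597, 2487, 2563 and 2490 CPM and neutrophil-gated cells 2838, 2805, 2891 and 3578 CPM, all above every NK value. Over libraries 1, 3 and 4 the mean log2 ratio of monocyte-gated over NK-gated cells was 0.57 (counting interval 0.49 to 0.66), and without library 1 it was 0.38. Macrophage-gated cells, at 1811, 1181, 1783 and 1330 CPM, were below every NK value except that of library 2 (1780). CD8 T-gated cells had 96.9 CPM and 31.5% with a UMI (8.21% after thinning), and the share after thinning (interval 5.22 to 12.2) overlapped the 7.47% (6.54 to 8.47) of tumour or epithelial cells and was below the 12.9% of fibroblasts in value. In library 1 the CD8 T level was above that of tumour or epithelial cells (58.0 CPM, 55.9 to 60.2). How much of the Tyrobp in T cells was free RNA was not tested. NK-gated cells held 0.608% of the 291369 Tyrobp UMIs in kept cells.

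The ratio of Tyrobp to Hcst UMIs in NK cells lay above that of CD8 T and CD4 T cells and below that of neutrophils, monocytes and macrophages. It was 5.15, 7.59 and 4.65 in the NK-gated cells of libraries 1, 3 and 4, and 0.205 in CD8 T-gated cells of library 1. In Foxp3-negative CD4 T-gated cells it was 0.126 to 0.441 and in monocyte-gated cells 36.2 to 158.5 over the 4 libraries. Neutrophil-gated cells had 13.7 to 21.8 and macrophage-gated cells 23.6 to 49.3, whereas basophil-gated cells, at 3.41 in library 2 and 8.25 in library 4, overlapped NK-gated cells. The monocyte value of library 1 (158.5) rested on 4 Hcst UMIs.

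Across all 28260 features with a UMI in 3 or more kept cells, a gene was called higher in a gate when the log2 ratio of the levels, with 10 CPM added to each, reached 1 (a 2-fold difference) in every library with 20 cells in each. NK-gated over CD8 T-gated cells could be compared in library 1 alone. There 4 of the 10 genes were higher, against 0.842% of all features, namely Ncr1 (log2 ratio 5.44), Tyrobp (4.10), Klra3 (3.66) and Klrb1c (2.94). Klrc1 was lower (-1.04), as were 1.68% of all features. Klrk1 (0.33), Klrd1 (-0.67), Klre1 (0.94) and Hcst (-0.41) were not called in either direction, and Klra8 was at 0 in both gates. Without the added CPM, Klrb1c was at least 35.2-fold higher, counting 3 UMIs over the gate as the floor, and Ncr1 had a ratio of 712 with a counting interval of 126 to 28316, since CD8 T-gated cells had 1 UMI. The median log2 ratio of the 10 genes was 0.63, and that of all features was 0.

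Over Foxp3-negative CD4 T-gated cells, which are helper T cells without the regulatory marker, 8 of the 10 genes were higher in NK-gated cells in libraries 1, 3 and 4, against 0.534% of all features. Klrk1 had log2 ratios of 3.36, 3.82 and 4.22 in these libraries, and Tyrobp had 3.42, 4.98 and 3.24. The others were Ncr1, Klrb1c, Klrd1, Klrc1, Klre1 and Klra3, and 4 of them had no UMI in the CD4 T gate. With UMIs pooled over libraries 1, 3 and 4, these were at least 318-fold (Ncr1), 195-fold (Klra3), 148-fold (Klre1) and 91.3-fold (Klrb1c) higher against a floor of 3 UMIs over the pooled gate. The libraries do not weigh alike in the 2 pooled gates. In library 1 alone, with 26 CD4 T-gated cells, the floor was 32.4 CPM, so the bounds there are far lower. NK-gated cells of that library had 451 CPM of Ncr1 and 66.9 CPM of Klrb1c. Hcst was the detected gene that was not called, with log2 ratios of -0.05, -0.67 and -0.35. The median over the 10 genes was 3.72, or 3.84 with the bounded genes at these pooled bounds.

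CD8 T-gated over Foxp3-negative CD4 T-gated cells, again in library 1 and with only 26 CD4 T-gated cells, gave 4 of the 10 genes as higher, against 5.17% of all features. They were Klrc1 (log2 ratio 4.53), Klrd1 (3.84), Klre1 (3.43) and Klrk1 (3.03). The CD4 T-gated cells had no UMI of Klrc1 or Klre1, so these were at least 6.81-fold and 3.03-fold higher, and 3 UMIs each of Klrk1 and Klrd1, with ratios of 10.4 (3.54 to 50.6) and 18.4 (6.28 to 89.5). Hcst (0.36) and Tyrobp (-0.68) were not called. The median over the 10 genes was 0.59. It was 0.18 with Klrc1 and Klre1 at their bounds and with Ncr1, Klrb1c, Klra3 and Klra8 set to 0. These last genes had no UMI in the CD4 T gate and did not exceed the floor of 3 UMIs in CD8 T-gated cells.

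Monocyte-gated over Foxp3-negative CD4 T-gated cells, compared in all 4 libraries, gave 1 gene higher, against 1.92% of all features, and 1 lower, against 1.4%. Tyrobp was higher, with log2 ratios of 4.39, 5.26, 5.37 and 3.60, and Hcst was lower, with -3.53, -2.19, -2.81 and -3.03. Klrk1 had 1.33, 1.04, 0.27 and 1.00 and was not called because of library 3. A count of 1 of 10 in each direction is too small to set against these shares.

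**Figure D3:**
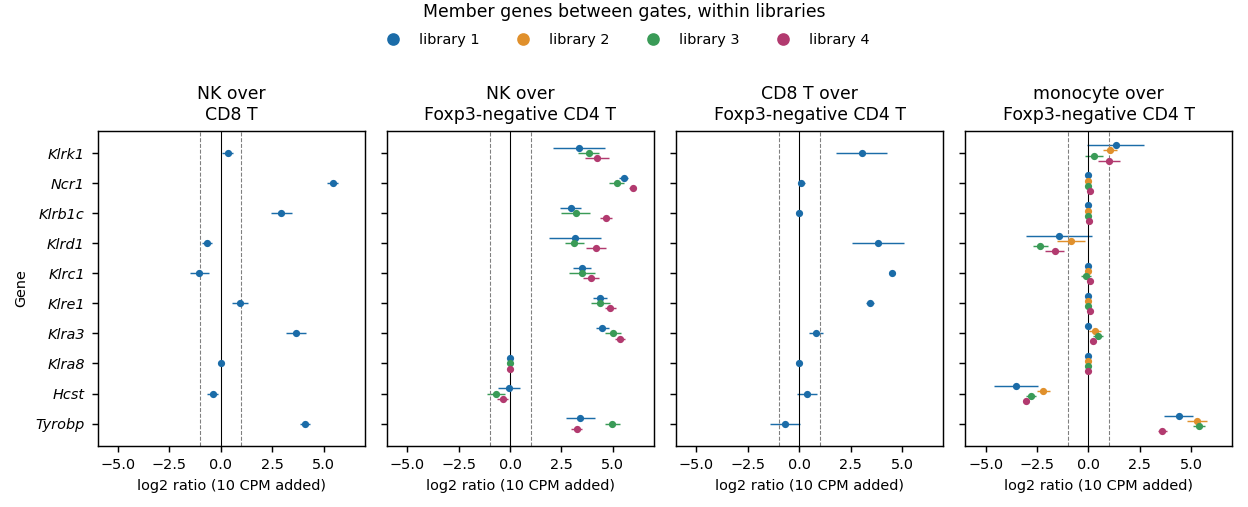
Log2 ratio of levels between gates (x axis, 10 CPM added to each level) for the 10 genes (y axis) in 4 comparisons, with 1 point per library and lines for the 95% counting interval. Dashed lines mark the 2-fold limits. Ncr1, Klrb1c, Klra3 and Tyrobp lie right of the limit in NK over CD8 T cells, and only Tyrobp and Hcst lie past the limits in all 4 libraries in the last panel.

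NK-gated cells carried more of the 7 detected receptor genes each than any other gate counted. Their median was 4 receptor genes per cell, or 2 after thinning to 1000 UMIs, against 3 and 1 in CD8 T-gated cells and 1 and 0 in Trdc T-gated cells. At least 4 receptor genes were found in 62.3% of NK-gated and 21.9% of CD8 T-gated cells. The cells of all libraries were pooled here, and library 1 gave 64 of 199 NK-gated but 243 of 270 CD8 T-gated cells. Of the Foxp3-negative CD4 T-gated cells 83.3% had none, and so had 99.6% of neutrophil-gated cells, at a median of 1842 UMIs.

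**Figure D4:**
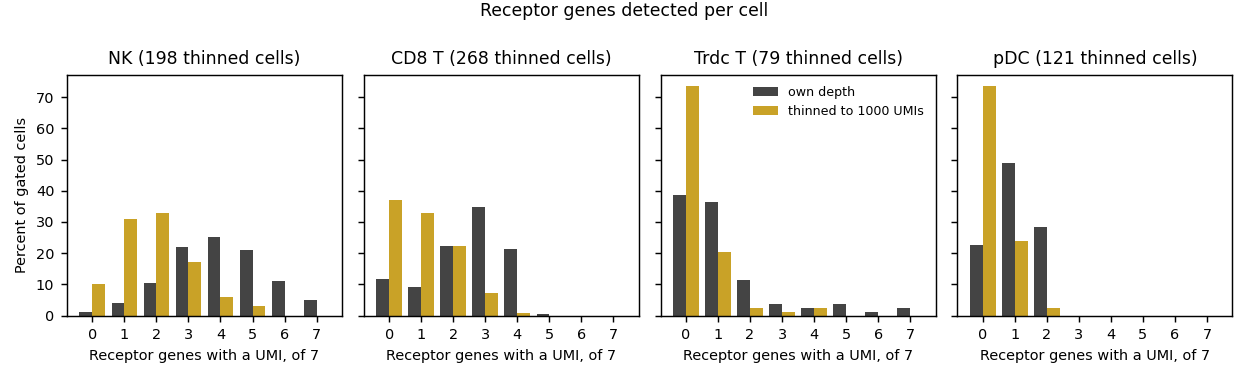
Percent of cells (y axis) by the number of receptor genes with a UMI, of the 7 that were detected (x axis), at each cell's own depth and after thinning to 1000 UMIs. NK-gated cells peak at 4 genes and CD8 T-gated cells at 3 at their own depth, and pDC-gated cells stop at 2.

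The genes of CD94 and its partner NKG2A were found together in a larger share of CD8 T-gated than of NK-gated cells at the cells' own depth. UMIs of Klrd1 and Klrc1 together were found in 56.3% (50.2 to 62.3) of CD8 T-gated and 29.1% (22.9 to 36.0) of NK-gated cells, and after thinning in 11.9% (8.31 to 16.4) and 6.06% (3.17 to 10.3), intervals that overlap. Among CD8 T-gated cells Klrc1 was in 71.0% of those with Klrd1 and in 25.0% of those without, and after thinning in 28.8% and 14.6%. Among NK-gated cells it was in 36.3% and 28.2%, and after thinning in 13.5% and 15.6%. Deep cells show more of every gene, so the thinned values are the ones at matched depth. None of these shares is matched for library, since library 1 gave 243 of 270 CD8 T-gated and 64 of 199 NK-gated cells. For NKG2D, Klrk1 and Hcst together were in 61.8% of NK-gated and 62.6% of CD8 T-gated cells, while Klrk1 and Tyrobp together were in 75.4% and 21.1%. After thinning these were 13.1% and 14.6% for Klrk1 and Hcst, and 30.3% and 1.49% for Klrk1 and Tyrobp.

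The Trdc T gate held a small set of cells with many of these genes, a split that was made after the values were seen. Ncr1 was found in 11 of the 80 cells. Of these 11, Klrk1 and Klrd1 were each in 9, Tyrobp in 10, Klrb1c in 6, Klre1 in 5 and Klra3 in 4. Of the 69 cells without Ncr1, Klrk1 was in 30, Klrd1 in 12, Tyrobp in 24 and each of Klrb1c, Klre1 and Klra3 in 1. The cytotoxic gene Gzma was in 5 of the 11 and in none of the 69, Eomes in 4 and none, and Il7r, the interleukin-7 receptor gene, in 3 of 11 and 56 of 69. T cell genes went both ways, with Cd3e in 6 of 11 and 63 of 69, Trbc2 in 10 of 11 and 55 of 69, Cd28 in 6 of 11 and 7 of 69, and Cd5 in 2 of 11 and 3 of 69. The highest counts of single cells in this gate were 33 UMIs of Klrd1, 30 of Ncr1 and 22 of Klra3, each above the highest NK-gated cell (11, 28 and 16). The whole gate held 86, 60 and 28 UMIs of these genes, so its levels of them rest in large part on single cells. Whether cells of more than 1 kind shared these barcodes was not tested.

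Dendritic cells held NKG2D transcripts in every gate and CD94 transcripts above all in pDC and cDC2. Klrk1 was in 52.8% and Klrd1 in 51.2% of the 123 pDC-gated cells, with Tyrobp at 3063 CPM and Ncr1 in 1 cell. In pDC-gated cells Klrd1 was in 52.3% of cells with Klrk1 and in 29 of the 58 cells without, and in library 4 in 61.9% and 50%. In cDC2-gated cells they coincided: Klrd1 was in 29 of 48 cells with Klrk1 (60.4%) and in 17 of 133 without (12.8%), a split chosen after the values were seen. It was seen in each library with 20 or more cells, at 53.3% and 9.86% in library 2, 57.1% and 7.41% in library 3, and 65.2% and 24.2% in library 4. After thinning, too few cells were left to follow it (2 of 10 and 5 of 171). The 29 cells with both genes had no UMI of Ncr1 or Nkg7, 6.90% had the pDC gene Siglech (4.31% of cells with neither gene), 41.4% had Klrb1b (21.6%) and 82.8% had the cDC2 gene Sirpa (82.8%). Of other genes common in pDC-gated cells, Tcf4 was in 79.3% (62.1%), Irf8 in 31.0% (19.0%) and Bst2 in 96.6% (81.9%). The pDC gene Ccr9 was in none (4.31%). The cDC2 genes Mgl2 and Irf4 were in 55.2% (63.8%) and 34.5% (31.0%). For each of these genes the intervals of both sets overlapped. The median depth of the 29 cells was 11717 UMIs, and that of cells with neither gene was 9750.5. cDC1-gated cells had Klrk1 in 48.3%, Klrd1 in 11.9% and Klra3 in 19.5%, and mature DC-gated cells had them in 14.9%, 14.4% and 7.66%. These shares are at the cells' own depth, with a median of 15301 UMIs in cDC1-gated, 10185 in cDC2-gated and 6620 in pDC-gated cells. After thinning, Klrk1 was in 8 of 118 cDC1-gated, 10 of 181 cDC2-gated and 16 of 121 pDC-gated cells.

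By count, more Klrk1 UMIs fell in the monocyte and macrophage gates than in the NK and CD8 T gates. Monocyte-gated cells held 1118 of the 4636 Klrk1 UMIs in kept cells (24.1%) and macrophage-gated cells 908 (19.6%), against 542 (11.7%) in CD8 T-gated and 390 (8.41%) in NK-gated cells. Per cell the level was low: 96.5, 10.5, 28.6 and 33.6 CPM in monocyte-gated and 34.2, 2.53, 9.03 and 12.3 CPM in macrophage-gated cells of libraries 1 to 4, a wide spread between libraries. The highest monocyte value, that of library 1, came from 35 cells.

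A Klrk1 UMI was found in 31.4%, 5.15%, 16.0% and 23.2% of monocyte-gated cells, and after thinning in 8.57%, 0.433%, 2.48% and 3.68%. Library 1 was highest and library 2 lowest in each of these rows of values and, at the cells' own depth, in macrophage-gated cells (31.1% of 1403 cells in library 1 and 18 of 900 cells in library 2). The monocyte values of library 1 rest on 35 cells. In 4 bins of depth, from the shallowest to the deepest, these cells had 1, 3, 1 and 12 Klrk1 UMIs, so most came from the 9 deepest cells. A Klrk1 UMI was in 2.01% of tumour or epithelial cells (0.372% after thinning) at a median of 15549 UMIs. It was in 1.10% of fibroblasts (0.125%) at 19647 UMIs and in 0.193% of neutrophils (0.0733%). After thinning, 3.40% of all monocyte-gated and 2.30% of all macrophage-gated cells had one. The gates differ in libraries: library 1 held 3013 of the 3087 tumour or epithelial cells and library 4 held 2838 of the 3431 monocyte-gated cells. Fibroblasts of library 4 stood at 4.46% (0.691% after thinning), above those of the other libraries. In library 2 thinning left 1 cell of 231 for monocytes and 1 of 866 for macrophages, too few to set apart from the non-immune gates. At own depth 0.288% of the fibroblasts and 5.15% of the monocytes of that library had a UMI. As many as 8 Klrk1 UMIs were counted in a single monocyte-gated cell, and 252 cells had 2 or more. How much of the Klrk1 in monocyte-gated and macrophage-gated cells was free RNA was not tested.

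Few of the monocytes with Klrk1 had UMIs of Ncr1, Nkg7, Prf1, Gzma or Klrd1, whereas Ccl5 was less rare, in a split made after the values were seen. Of the 732 monocyte-gated cells with Klrk1, 0.683% had Ncr1 (0.259% of the 2699 without), 1.50% had Nkg7 (1.00%), 0.546% had Prf1 (0.556%), 5.19% had Gzma (4.08%) and 3.69% had Klrd1 (1.00%). In the NK gate, Ncr1 was in 71.1% and Nkg7 in 99.3% of cells with Klrk1. Of the 606 macrophage-gated cells with Klrk1, none had Ncr1, 7.10% had Nkg7 (2.28% of those without) and 1.98% had Klrd1 (0.876%). Prf1 was in 1.65% of them (0.456%) and Gzma in 2.97% (2.77%). Ccl5, found in 86.4% of NK-gated cells and 12.3% of the other cells, was in 19.1% of the monocytes with Klrk1 (12.9% of those without). In macrophages Ccl5 was in 31.4% of those with Klrk1 and 15.9% of those without. By library it was in 30.2% and 21.1% in library 1 and in 32.6% and 17.9% in library 4. The macrophages with Klrk1 were deeper, at a median of 12827.5 UMIs against 8690, and the monocytes were so by less, at 9061.5 against 8119. By library, the macrophage medians were 13682 and 10804.5 UMIs in library 1 and 10969.5 and 10068 in library 4. Within library 4, which held 2838 of the 3431 monocyte-gated cells, the Klrk1 level in 4 equal bins of depth was 41.5, 39.3, 46.9 and 23.1 CPM from the shallowest to the deepest cells.

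**Figure D5:**
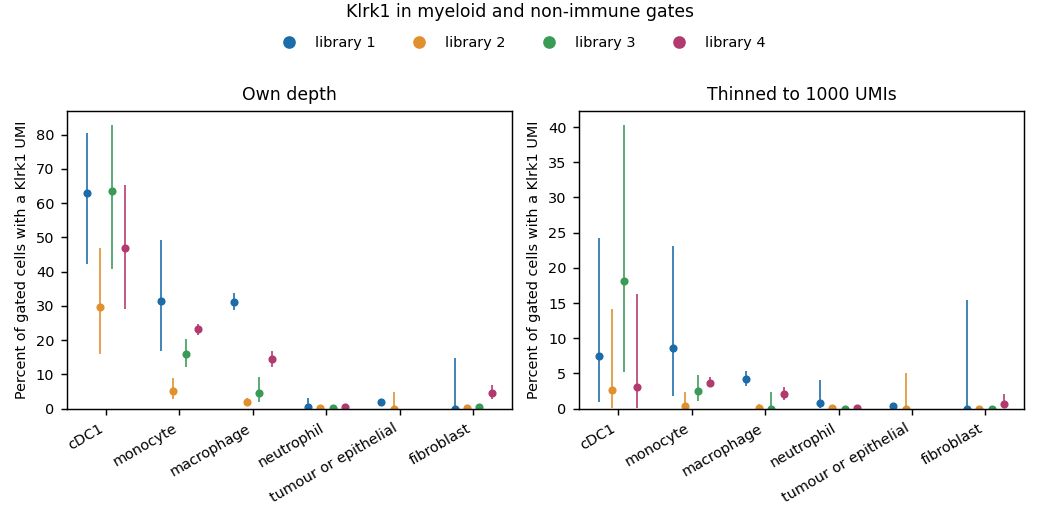
Percent of cells with a Klrk1 UMI (y axis) in 6 myeloid and non-immune gates (x axis) by library (colour) with exact 95% intervals, at own depth on the left and after thinning to 1000 UMIs on the right, on different scales. Monocytes of library 2 are at 5.15% and those of library 1, with 35 cells, at 31.4%, and neutrophils stay near 0.

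Other receptors of the NK gene complex were counted by the same rule, and 10 of the 20 listed genes were higher in NK-gated than in Foxp3-negative CD4 T-gated cells and none lower. Against CD8 T-gated cells 8 of 20 were higher and none lower. The shares of all features that follow apply to this list and to those below. For NK-gated over CD8 T-gated cells 0.842% were higher and 1.68% lower, and over Foxp3-negative CD4 T-gated cells 0.534% and 0.58%. For CD8 T-gated over Foxp3-negative CD4 T-gated cells they were 5.17% and 3.26%, and for monocyte-gated over Foxp3-negative CD4 T-gated cells 1.92% and 1.4%. CD8 T-gated over Foxp3-negative CD4 T-gated cells gave 3 of 20 higher (Klrc2, Klra5 and Klri2), against the 5.17% of all features, and 1 lower (Klrg1), against 3.26%, and monocyte-gated cells gave 1 higher (Klra2). Those at 50 CPM or more in NK-gated cells were Klrc2 (NKG2C, 135 CPM, an activating partner of CD94), Klri2 (104), Klrb1f (94.5), Klra7 (85.3), Klra13-ps (84.0) and Klrb1a (58.6). In CD8 T-gated cells Klrc2 was at 138 CPM, which did not separate it from NK-gated cells, and Klra5 at 58.3. Members of the complex were also high outside NK cells: Klra2 in neutrophil-gated (92.9 CPM, 31.5 to 154) and monocyte-gated cells (56.5), Klrg1 in Foxp3-positive CD4 T-gated cells (155) and Klrb1b in cDC1-gated cells (57.1).

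Of 10 other activating or co-receptor genes of NK cells, Cd244a and Slamf7 were higher in NK-gated than in CD8 T-gated cells and Cd96 and Lag3, which are inhibitory on T cells, were lower. Against Foxp3-negative CD4 T-gated cells 3 were higher (Cd244a, Slamf7 and Crtam) and none lower. Between CD8 T-gated and Foxp3-negative CD4 T-gated cells 5 were higher, among them Lag3 (162 and 43.1 CPM) and Cd160 (34.2 CPM and no UMI), and 2 lower (Slamf6 and Fcgr3). Of all features 5.17% were higher and 3.26% lower in that comparison. In monocyte-gated cells 2 were higher than in Foxp3-negative CD4 T-gated cells (Fcgr3 at 524 CPM and Cd244a at 19.4) and 3 lower (Cd226, Slamf6 and Cd96).

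Among 18 genes of adaptors and kinases, Fcer1g, the partner of NKp46 and NK1.1, followed Tyrobp: it was at 1199 CPM in NK-gated cells, 3526 in monocyte-gated, 3804 in neutrophil-gated and 157 in CD8 T-gated cells. Fcer1g, Pik3r1 and Sh2d1b1 were higher and Lat, Plcg1 and Cd247 lower in NK-gated than in CD8 T-gated cells. Against Foxp3-negative CD4 T-gated cells, Fcer1g, Lat2, Plcg2 and Sh2d1b1 were higher and Lat, Lcp2 and Plcg1 lower (0.58% of all features were lower), with the T cell adaptor Lat at 29.9 against 462 CPM and its relative Lat2 at 155 against 21.2 CPM. Monocyte-gated cells had 4 higher (Fcer1g, Syk, Lat2 and Plcg2) and 5 lower (Cd247, Zap70, Lat, Plcg1 and Sh2d1a) in the same comparison, and CD8 T-gated cells 1 of 18 higher (Ptpn6), a share near the 5.17% of all features, and 2 lower (Lat and Vav1). The kinase Zap70 was at 80.7 CPM in NK-gated cells and Syk at 120 CPM in monocyte-gated cells.

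The receptors that pair with DAP12 in myeloid cells were spread over the myeloid gates, each with its own pattern. Of the 17 listed, none was called in either direction between NK-gated cells and either T cell gate. In monocyte-gated over Foxp3-negative CD4 T-gated cells 8 were higher, against 1.92% of all features. Siglech, which was used in the pDC gate, was at 1120 CPM there. Trem1 was at 1389 CPM (951 to 1821) in neutrophil-gated, Trem2 at 333 CPM (251 to 448) in macrophage-gated and Cd300c2 at 308 CPM (240 to 374) in monocyte-gated cells. Between CD8 T-gated and Foxp3-negative CD4 T-gated cells 1 of 17 was higher (Trem2), a share near the 5.17% of all features. In the same comparison 2 were lower (Trem1 and Cd300c2), against 3.26%. Levels of these genes were at most 32.4 CPM, and the part of free RNA in them was not tested.

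Of 14 listed ligand genes 9 had a row, and Raet1a, Raet1b, Raet1c, H60a and H2-L had none, so nothing is shown for these. Of the 9, H2-D1 (3379 CPM), H2-K1 (1755 CPM) and H2-T23 (121 CPM) were found in tumour or epithelial cells. H2-T23 was at 172 CPM in NK-gated and 331 CPM in pDC-gated cells. Ulbp1, a ligand gene of NKG2D, was lower in NK-gated than in CD8 T-gated cells of library 1 (2.91 CPM, which is 1 UMI, and 16.5 CPM). It averaged 14.8 CPM in NK-gated cells over libraries 1, 3 and 4. Clec2d was lower in CD8 T-gated than in Foxp3-negative CD4 T-gated cells (41.2 and 173 CPM), and none of the 9 was called in the other comparisons. Of 6 genes of type 1 innate lymphoid cells, Il7r, Cxcr6 and Cd200r1 were lower in NK-gated than in CD8 T-gated cells, and Il7r and Cxcr6 were lower than in Foxp3-negative CD4 T-gated cells. Against that gate CD8 T-gated cells had Itga1, Tnfsf10 and Cxcr6 higher and Il7r lower, and monocyte-gated cells had Il7r and Cxcr6 lower. Trdc T-gated cells had 805 CPM of Il7r and 576 CPM of Cxcr6.

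The likeness of patterns was described by Pearson's r of log2(CPM + 10) over 17 gates, which share libraries and depth. Ncr1 and Klrb1c were alike (0.98), as were Klrc1 and Klre1 (0.96) and Klrk1 and Klrd1 (0.93), whereas Hcst and Tyrobp were not (0.19). Outside the 10 genes, the nearest to Ncr1 were Klra13-ps (0.97), Klrb1f (0.95) and Lsamp (0.94), and the nearest to Klrb1c were Klra13-ps (0.98), Klrb1a (0.98) and Prss2 (0.98). Klrc1 was nearest to Klrc2 (0.99), Klra5 (0.98) and Styk1 (0.97). Klre1 was nearest to Prf1 (0.99), which the NK gate used, Styk1 (0.98) and Ifitm10 (0.98). Klra3 was nearest to Klra13-ps (0.95), Gm17203 (0.94) and Klra9 (0.94). The pattern of Klrd1 was closest to Ctsw (0.89), Tbx21 (0.89) and CAAA01141682.1 (0.89). That of Klrk1 had no close match and was nearest to Zfp39 (0.84), Klri2 (0.83) and 9230116N13Rik (0.83). Hcst resembled Rhoh (0.95), Cd69 (0.95) and Vps37b (0.94), and Tyrobp resembled Fcer1g (0.97), Syk (0.90) and Oasl1 (0.90).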

How the data were processed

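Single cells of 4T1 tumours were profiled by 10x Genomics 3′ RNA-seq, with 4 samples in the series (2 PBS, 1 TIOs+NIR, 1 unassigned). The authors deposited 1 matrix of UMI counts, not normalized, made with Cell Ranger. The design text names version 3.0.2, the matrix header 6.1.2 and the processing notes 2.1.1, with the build mm10. The design text states 15603 cells after the filters of 300 genes and 15% mitochondrial transcripts, and the same filters left 32133 of 33064 barcodes over the 4 libraries here; which libraries the stated number covers was not given, so they may be different sets. Barcode suffixes could not be tied to samples, so levels were computed per library, ratios of levels between gates were taken within libraries, and no test was run. The bounds of NK-gated over Foxp3-negative CD4 T-gated cells used UMIs pooled over libraries 1, 3 and 4. Shares of cells, receptor genes per cell, genes found together and splits by a gene pooled the cells of all libraries unless a library is named. The 10 genes, the gene lists and the gates were chosen with earlier results of these data known.

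Counts were summed over gated cells in Python 3.11.15 (numpy 2.4.6, scipy 1.17.1, pandas 2.3.3, matplotlib 3.10.9). Mean levels and ratios used libraries with 20 or more cells of the gate. Calls needed a log2 ratio of 1 with 10 CPM added, in every such library. Shares have exact (Clopper-Pearson) and levels exact Poisson 95% intervals, and a count of 0 allows 3 counts. Cells were thinned to 1000 UMIs with a fixed seed, and shallower cells were left out (1 of 199 NK-gated and 255 of 5711 neutrophil-gated cells). Doublets were treated by setting aside cells that passed several gates; no doublet caller was run. List genes at 50 CPM or more in a gate, averaged over libraries, could be named, as could any list gene that was called, and the 3 genes nearest to each of the 10 by Pearson's r, among those with a UMI in 50 or more cells. Symbols without a row (Klrh1, Cd244, Raet1a, Raet1b, Raet1c, H60a, H2-L) were left out. Other gates, filters, added CPM, thinning and left-out libraries were tried as alternatives. Coordinates and coding sequences are from GENCODE vM21 on GRCm38, and promoters from RefSeq on GRCm38.p6.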

Additional observations from a re-analysis of the deposited data

Results flagged for a closer look

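In 22 sets of a gene and a gate with levels in all 4 libraries, 2 had a library far from the other 3 by Dixon's limit for 4 values, where chance gives about 1 in 20. The libraries are not replicates of a group, and their treatments are unknown. Tyrobp in monocyte-gated cells stood at 3597 CPM in library 1, against 2487, 2563 and 2490 CPM in libraries 2, 3 and 4, and library 1 held 35 monocyte-gated cells. Tyrobp in neutrophil-gated cells stood at 3578 CPM in library 4, against 2838, 2805 and 2891 CPM in libraries 1, 2 and 3, and library 4 held 1460 of the 5711 neutrophil-gated cells.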

How the results depend on the processing

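Of 108 alternative values, 94 stayed within their limits, 14 moved and none reversed. Some of the 94 could not move, so this count is no measure of stability. The comparisons with CD8 T-gated cells, the Klrk1 ratio included, used library 1 alone, so leaving out another library returned the same value. Library 2 was not used in the ratios of NK-gated cells, and the NK gate was not part of comparisons without NK-gated cells. An NK gate of Ncr1 selects for Ncr1, which is itself among the genes counted. No value could be computed without library 1 for NK-gated over CD8 T-gated cells, for CD8 T-gated over Foxp3-negative CD4 T-gated cells or for the Klrk1 ratio of NK-gated over CD8 T-gated cells. Thinning to 1000 UMIs gave a Tyrobp log2 ratio of monocyte-gated over NK-gated cells of 0.71 in place of 0.57, Ncr1 in 36.9% of NK-gated cells, Klrk1 in 30.2% of CD8 T-gated cells, and Klrd1 with Klrc1 in 6.06% of NK-gated cells. A limit of 2 UMIs for detection gave 50.3%, 47.0% and 11.1% for these shares. The Tyrobp ratio was 0.86 with an NK gate of Ncr1 and 0.67 without the deepest 5% of cells. Leaving out each library in turn gave 0.38 to 0.68 for that ratio, 0.38 without library 1, and 18.5% to 73.8% for Klrk1 in CD8 T-gated cells, 18.5% without library 1. It gave 1 to 2 genes higher in monocyte-gated than in Foxp3-negative CD4 T-gated cells, the second being Klrk1 without library 3. No paired test over libraries was run, since the barcodes carry no sample numbers and the matrix was treated as 1 sample. Ratios between gates were taken within each library, apart from the pooled bounds of NK-gated over Foxp3-negative CD4 T-gated cells. Detection at these depths limits all shares of cells, and 1 library carries the CD8 T values.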
